A study of Homo sapiens with 2 samples.

Results

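Spliceosomal small nuclear RNAs (snRNAs) are short, non-coding RNAs that form the catalytic and recognition core of the spliceosome. U1 pairs with the 5′ splice site, U2 with the branch point, and U4, U5 and U6 join as a tri-snRNP in which U4 holds U6 until activation. U4atac and U6atac, with U11 and U12, serve the minor spliceosome and its small class of introns. The U1, U2, U4, U5 and U4atac genes are transcribed by RNA polymerase II and their RNAs carry a ring of Sm proteins, whereas U6 and U6atac are polymerase III products that carry an LSm ring. The genes described here were chosen by 2 criteria, the gene type snRNA in the GENCODE annotation of GRCh37 and a sum of at least 10 reads over the parental and CARM1 KO libraries. Of 1912 snRNA genes found in the count table, 1811 had 0 reads in both libraries, 44 had 1 to 9 reads and 57 were selected. Because the selection used the summed reads of the same libraries, a gene could enter through the library in which it was high, and the counts of genes over the selected set are a description.

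RNA-Seq was performed in A1847, an established human ovarian cancer cell line with high expression of CARM1, an arginine methyltransferase. The groups were parental control A1847 cells, with wild type CARM1, and A1847 cells with a CRISPR-mediated CARM1 knockout (CARM1 KO), both cultured in medium with fetal bovine serum. There was 1 library per group, and the knockout was 1 clone made with a CARM1 guide RNA in a lentiviral CRISPR vector. The table held 57736 genes, with 30741953 parental and 32300391 CARM1 KO reads, and no difference has a replicate check. CARM1, the targeted gene, had 975 parental and 380 CARM1 KO reads, and its scaled level was 2.63-fold lower in the knockout (counting interval 2.33 to 2.97). Of 9 epithelial ovarian cancer markers, KRT8, KRT18, KRT7, PAX8 and EPCAM had at least 249 reads in each library, whereas MUC16 and WT1 had at most 8, KRT19 had 45 parental and 0 CARM1 KO reads and CDH1 had 3 and 53. The summed reads were 43787 and 150298 for these 9 markers, 348 and 680 for 4 fibroblast markers, and 6 and 0 for the leukocyte marker PTPRC, in parental and CARM1 KO cells, respectively. Of the fibroblast markers, COL1A1 had 131 and 537 reads, PDGFRB 132 and 142, LUM 61 and 1, and DCN 24 and 0. The part of these differences in the snRNA values was not tested. In a bulk library, fewer cells that make an RNA and less of that RNA per cell cannot be told apart.

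The sequences of U1, U2 and U4 genes on which the results turn are given first, from GRCh37 and on the transcribed strand, since several genes differ by few bases and share reads. The U1 genes RNU1-1 (chr1:16840617-16840780, minus strand), RNVU1-7 (chr1:145969270-145969433, minus strand) and RNVU1-13 (chr1:147994146-147994313, plus strand) follow. In RNU1-1 and RNVU1-7 capitals mark the stretch that pairs with the 5′ splice site and the base at which the genes differ, and in RNVU1-13 they mark every base that differs from RNU1-1.
RNU1-1: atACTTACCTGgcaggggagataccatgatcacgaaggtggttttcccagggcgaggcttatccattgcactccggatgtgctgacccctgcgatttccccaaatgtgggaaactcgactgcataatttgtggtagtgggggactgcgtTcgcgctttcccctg
RNVU1-7: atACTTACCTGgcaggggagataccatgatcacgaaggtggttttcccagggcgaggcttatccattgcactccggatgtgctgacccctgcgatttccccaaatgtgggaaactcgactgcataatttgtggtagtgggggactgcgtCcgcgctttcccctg
RNVU1-13: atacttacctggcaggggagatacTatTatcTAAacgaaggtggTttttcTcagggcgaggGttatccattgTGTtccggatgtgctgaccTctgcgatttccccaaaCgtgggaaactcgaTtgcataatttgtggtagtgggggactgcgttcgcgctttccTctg

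RNU2-2P (chr11:62609091-62609281, minus strand) took most snRNA reads, and capitals mark the stretch that pairs with the branch point. RNU4-1 (chr12:120730900-120731040, minus strand) and RNU4-2 (chr12:120729566-120729706, minus strand) are the active U4 genes, with 1193 bases between them, and capitals mark the 4 bases at which they differ.
RNU2-2P: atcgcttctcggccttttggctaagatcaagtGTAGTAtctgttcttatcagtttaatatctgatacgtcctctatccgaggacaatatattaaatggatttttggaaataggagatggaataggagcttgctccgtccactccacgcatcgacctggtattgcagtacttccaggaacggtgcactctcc
RNU4-1: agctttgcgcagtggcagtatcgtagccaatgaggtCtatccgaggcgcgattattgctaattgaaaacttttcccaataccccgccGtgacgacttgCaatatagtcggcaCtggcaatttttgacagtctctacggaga
RNU4-2: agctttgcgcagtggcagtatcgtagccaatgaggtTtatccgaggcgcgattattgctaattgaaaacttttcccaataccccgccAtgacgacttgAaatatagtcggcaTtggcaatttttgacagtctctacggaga

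snRNA genes took a smaller part of the CARM1 KO library than of the parental library. All 1912 genes together had 962348 parental and 184603 CARM1 KO reads, which was 3.13% (95% exact interval 3.12 to 3.14) and 0.572% (0.569 to 0.574) of the libraries. Libraries were scaled by edgeR's TMM method, which gives each library a size factor from a trimmed mean of gene ratios. After this scaling the snRNA sum in CARM1 KO was 5.34-fold below that of parental cells (95% interval 5.31 to 5.36). The intervals are exact binomial intervals, cover counting error only and do not measure the spread between cultures. RNU2-2P alone held 75.9% of the parental and 53.9% of the CARM1 KO snRNA reads. Without the U2 class, the summed level of the other snRNA genes was 2.76-fold lower (2.74 to 2.78).

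Among the 57 genes, 56 had a lower level in CARM1 KO cells and 1, RNVU1-13, a higher level. A gene was counted as lower or higher when its scaled reads differed by more than 3-fold, the fold threshold used by the authors, with 0 reads set to 3 reads. By this criterion 40 genes (70.2%) were lower, 0 were higher and 17 were within 3-fold, and at a threshold of 2-fold 1 gene was higher. No p-value was computed for these counts, as there was 1 library per group. Over all 18563 genes with at least 10 reads, 11.7% were lower and 12.8% were higher by the same criterion. The median log2 ratio was -2.40 over the 57 genes (-2.29 with counts under 3 set to 3) and -0.03 over all 18563 genes. The criterion on summed reads bears on these values. In CARM1 KO cells 26 of the 57 genes had under 10 reads and 11 had 0 reads, whereas none had 0 reads in parental cells. Of the 31 genes with at least 10 reads in each library, 14 were lower, and 14 of the other 17 were copies of either of the identical U1 and U6 sequences described below. The genes just inside the selection were RNVU1-3 and RNVU1-12, with 10 parental and 0 CARM1 KO reads each, and RNVU1-4 and RNVU1-5, with 8 and 2 reads each. Just outside it were RNU1-60P, with 7 and 1 reads, and RNU6-116P, with 6 and 2 reads.

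**Figure D1:**
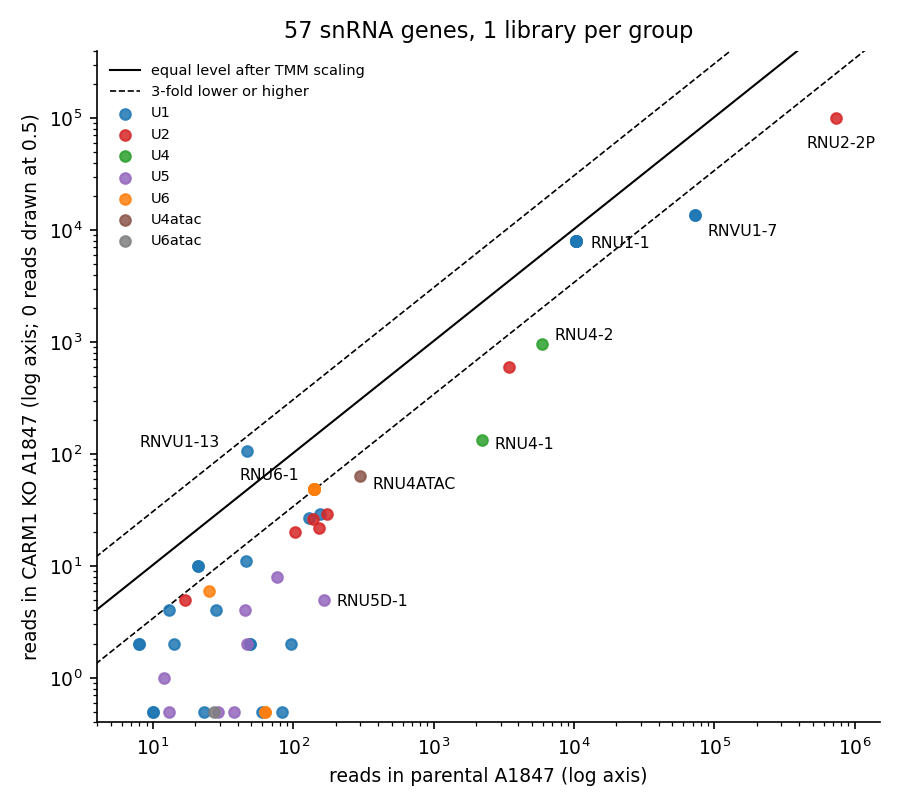
Reads of each of the 57 snRNA genes in the parental library (x axis) and the CARM1 KO library (y axis), both on log axes, colored by class, with copies of equal counts on top of each other. The points of 40 genes lie under the lower dashed line, which marks a level 3-fold lower after TMM scaling, and RNVU1-13 is the only point above the solid line of equal level.

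The copies of snRNA genes share sequence, which limits what the count of a gene means. The 57 genes had 40 distinct sequences, and 24 genes fell in 7 groups of identical copies. In each of the 7 groups the copies had equal counts in both libraries, so reads had been divided evenly among them. The counts were estimated by RSEM, which also divides reads among copies that differ by few bases, and that division rests on the reads that cover a differing base. Sums over a class do not depend on that division among its genes and are given first below. Of the 40 distinct sequences, 36 were lower by more than 3-fold, and in 28 the whole counting interval lay past 3-fold.

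U2 RNA gave the most reads of any class. Over 70 genes U2 had 734813 parental and 100133 CARM1 KO reads, a level 7.51-fold lower (95% interval 7.46 to 7.56). RNU2-2P, an expressed U2 gene in spite of the pseudogene suffix in its symbol, had 730792 and 99430 reads, and was 7.53-fold lower (7.48 to 7.58). Its level per length was 122860 RPKM (TMM-scaled) in parental and 16327 RPKM in CARM1 KO cells. The 6 other selected U2 genes are pseudogenes by symbol, were 76.9 to 92.7% identical to RNU2-2P, and were each lower by more than 3-fold. RNU2-59P had 3426 and 598 reads and was 5.87-fold lower (5.38 to 6.41). RNU2-6P had 174 and 29 reads, RNU2-63P 153 and 22, RNU2-48P 137 and 26, and RNU2-64P 103 and 20. The folds of the 6 genes ran from 3.48 to 7.12. The counting interval of RNU2-59P lay below that of RNU2-2P, whereas those of the 5 others overlapped it. Counted from the first base of RNU2-2P, the substitutions A109C and A111G were carried by all 6 copies and A108G, T110A and T170C by all but RNU2-63P, so that reads over these bases can tell the copies from RNU2-2P. The U2 gene RNU2-1 was not found by name among the counted genes and was not analysed here. Whether reads from RNU2-1 were counted under RNU2-2P or another copy was not tested.

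U1 RNA was lower by less, and its copies differed from each other. Over 142 genes U1 had 217531 parental and 82932 CARM1 KO reads, a level 2.69-fold lower (95% interval 2.66 to 2.71), which is within 3-fold. The 7 genes of the standard U1 sequence, RNU1-1, RNU1-2, RNU1-3, RNU1-4, RNVU1-18, RNU1-27P and RNU1-28P, had 10230 and 7924 reads each. Their summed level was 1.32-fold lower (1.31 to 1.34), the smallest difference among the sequences with a lower level. RNVU1-7 and RNVU1-9, variant U1 genes of identical sequence, had 72505 and 13621 reads each and were 5.45-fold lower as a sum (5.38 to 5.52). They differ from RNU1-1 by T150C alone, counted from the first base, and have the same 5′ end. RNVU1-7 and RNVU1-9 held 66.9% (95% exact interval 66.7 to 67.1) of the reads of the 9 genes in parental and 32.9% (32.6 to 33.3) in CARM1 KO cells. Reads that do not cover base 150 cannot tell the sets apart, and the 9 genes as a sum were 2.68-fold lower (2.66 to 2.70). Searched exactly in GRCh37 on both strands, the sequence of RNU1-1 occurs 7 times and that of RNVU1-7 occurs 2 times, each time at a selected gene.

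The 19 other U1 genes were 72.0 to 96.3% identical to RNU1-1 and had 8 to 154 reads in parental and 0 to 106 reads in CARM1 KO cells. Of these, 16 were lower by more than 3-fold. RNU1-85P had 154 and 29 reads and was 5.44-fold lower (3.64 to 8.39). RNVU1-14 had 130 and 27 reads and was 4.93-fold lower (3.24 to 7.76). The U1 genes with 0 reads in CARM1 KO cells were RNU1-108P, with 83 reads in parental cells, RNU1-120P with 60, RNVU1-20 with 23, and RNVU1-3 and RNVU1-12 with 10 each. With its 0 reads set to 3, RNU1-108P was 28.3-fold lower. The U1 genes with 0 reads, and RNVU1-13, were named after their values were seen. RNVU1-13, a variant U1 gene with 15 differences from RNU1-1, had 47 parental and 106 CARM1 KO reads, and was 2.20-fold higher (1.55 to 3.18). RNVU1-1 and RNVU1-10, of identical sequence, had 21 and 10 reads each and were 2.15-fold lower as a sum (1.23 to 3.87). The stretch ACTTACCTG was present on the transcribed strand of 15 of the 28 selected U1 genes and of 33.1% of all 142 U1 genes.

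**Figure D2:**
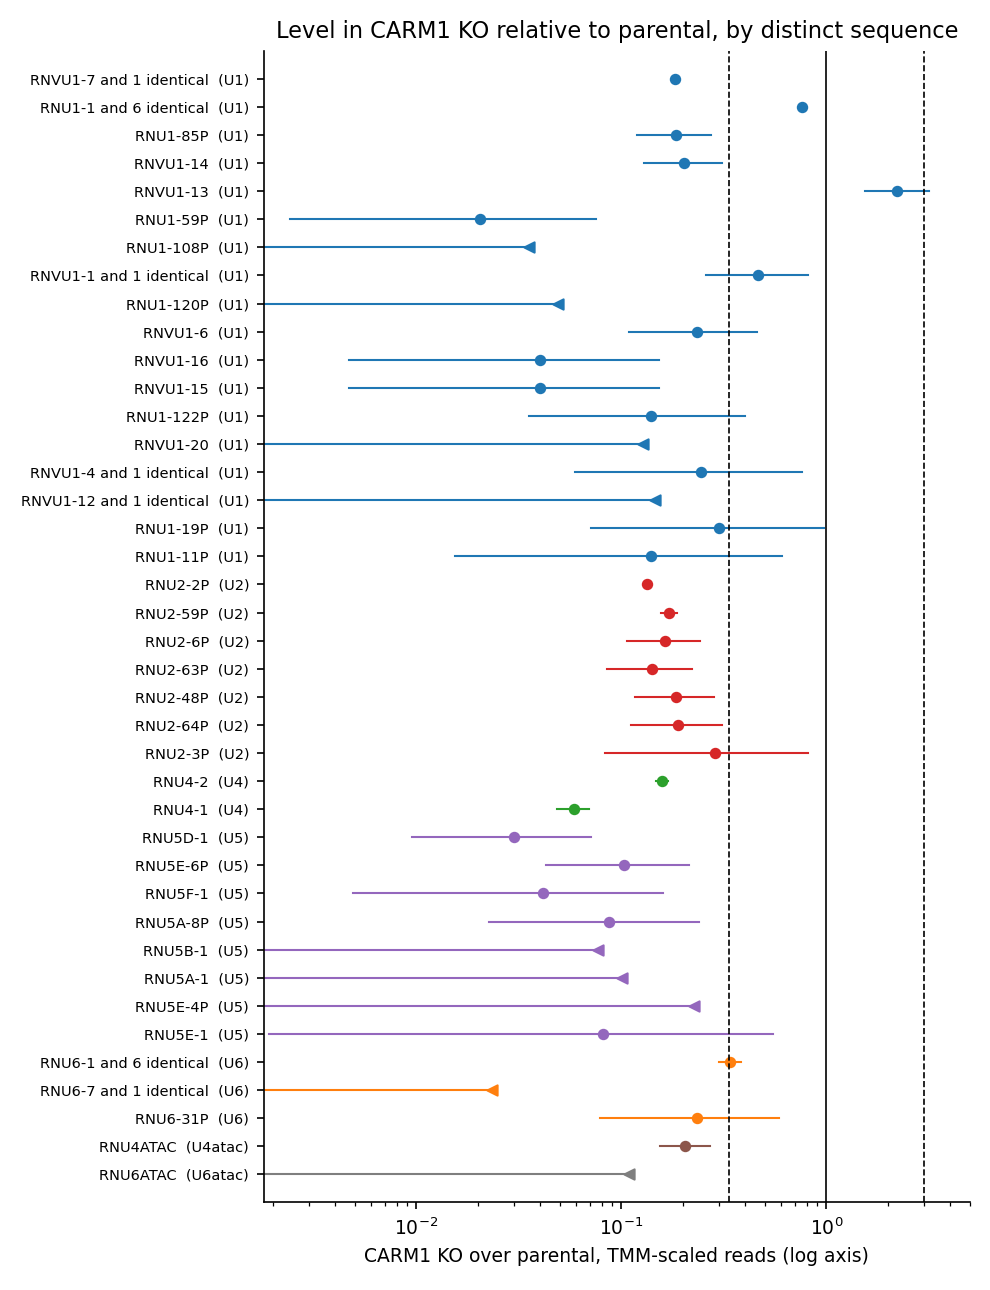
Ratio of CARM1 KO to parental reads after TMM scaling (log x axis) for each of the 40 distinct sequences, by class, with copies of identical sequence summed. Points are ratios and lines are exact 95% counting intervals. Triangles mark the ratio with 3 reads in place of 0 where CARM1 KO cells had 0 reads. The dashed lines mark 3-fold, and the standard U1 sequence (RNU1-1 and 6 identical) lies closest to equal level, whereas all U2, U4 and U5 sequences lie left of the 3-fold line.

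U4, which base pairs with U6, was lower in both of its active genes. As a class U4 had 8093 parental and 1087 CARM1 KO reads, a level 7.62-fold lower (7.15 to 8.13). RNU4-2 had 5885 and 953 reads and was 6.32-fold lower (5.90 to 6.78). RNU4-1 had 2207 and 132 reads and was 17.1-fold lower (14.4 to 20.6), so the counting intervals of the 2 genes do not overlap. RNU4-1 held 27.3% (26.3 to 28.3) of the reads of the 2 genes in parental and 12.2% (10.3 to 14.3) in CARM1 KO cells. The genes differ by C37T, G88A, C99A and C113T, written from RNU4-1 to RNU4-2 and counted from the first base of RNU4-1, so more of their reads can be told apart than for the U1 copies.

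U5 RNA, which aligns the exons, had few reads in either library. Over 31 genes U5 had 424 parental and 20 CARM1 KO reads, a level 21.7-fold lower (13.9 to 35.9). RNU5D-1 (chr1:45196727-45196842, minus strand) had 164 and 5 reads and was 33.6-fold lower (14.1 to 105), and RNU5F-1 had 47 and 2 reads and was 24.1-fold lower (6.30 to 204). RNU5E-1 had 12 and 1 reads. RNU5B-1 had 38 parental reads and RNU5A-1 had 29, and both had 0 CARM1 KO reads. With its 0 reads set to 3, RNU5A-1 was 9.90-fold lower. Of the U5 pseudogenes, RNU5E-6P had 76 and 8 reads, RNU5A-8P 45 and 4, and RNU5E-4P 13 and 0. All 8 selected U5 genes were lower by more than 3-fold and all carried CTTTTAC, the loop that contacts the exon ends, which 80.6% of the 31 U5 genes carry.

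U6 RNA, a polymerase III product that forms the catalytic center with U2, was close to the threshold. Over 1332 genes U6 had 1158 parental and 368 CARM1 KO reads, a level 3.22-fold lower (2.86 to 3.63). The identical genes RNU6-1, RNU6-2, RNU6-9, RNU6-3P, RNU6-4P, RNU6-5P and RNU6-6P had 141 and 49 reads each and were 2.95-fold lower as a sum (2.60 to 3.34). RNU6-7 and RNU6-8 differ from these by T107G, the last annotated base, and each had 63 parental and 0 CARM1 KO reads. As a pair they were 43.0-fold lower with their 0 reads set to 3. Only a read that reaches base 107 can tell RNU6-7 from RNU6-1, and the 9 genes as a sum were 3.32-fold lower (2.94 to 3.76). RNU6-31P had 25 and 6 reads. All 10 selected U6 genes carried the ACAGAGA box, which pairs with the 5′ splice site, as did 54.1% of all U6 genes.

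The minor spliceosomal snRNAs were lower as well, at low read numbers. RNU4ATAC (chr2:122288457-122288583, plus strand) had 300 parental and 63 CARM1 KO reads, and was 4.88-fold lower (3.70 to 6.50). RNU6ATAC (chr9:137029561-137029686, minus strand) had 27 and 0 reads and was 9.21-fold lower with the 0 reads set to 3. The 4 U11 genes and the 1 U12 gene of the table are pseudogenes by symbol and had 0 reads in both libraries, and RNU11 and RNU12 themselves were not analysed here. RNU7-1, the U7 gene for histone RNA processing and not for splicing, had 0 reads in both libraries. With 0 reads, up to 3 reads per library would not have been detected.

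**Figure D3:**
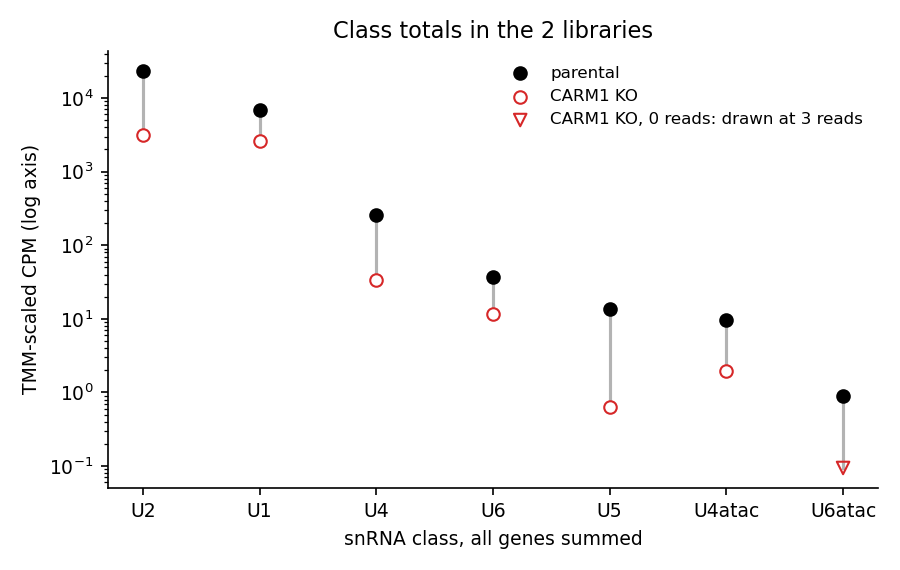
Summed counts of each library as TMM-scaled CPM (log y axis) of each snRNA class in the parental library (black) and the CARM1 KO library (red, open), with 0 reads drawn at 3 reads as a triangle. Every class shown is lower in CARM1 KO cells, from 2.69-fold for U1 to 21.7-fold for U5.

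The selected genes are described here by features that the selection did not use. They were 107 to 194 nt long and lay on 15 chromosomes, with 22 of the 28 U1 genes and 6 of the 8 U5 genes on chromosome 1. The share of all U1 and U5 genes on chromosome 1 was not determined, so these counts are not a trait of the selected genes. The core of the Sm binding site, TTTNTG on the transcribed strand, was present in 24 of 28 U1, 7 of 7 U2, 2 of 2 U4 and 7 of 8 U5 genes and in RNU4ATAC, but in 0 of 10 U6 genes and not in RNU6ATAC. It was present in 36.1% of all 1912 snRNA genes, of which 1332 are U6 genes. By class, the share was 72.5% for U1, 60% for U2, 67.0% for U4 and 67.7% for U5 genes. It was 88.9% for U4atac, 25.7% for U6 and 17.1% for U6atac genes. The octamer ATGCAAAT, to which the transcription factor POU2F1 binds in the distal element of snRNA promoters, was searched on both strands from 250 bases before to 50 bases after each gene start in GRCh37. It was found at 14 of the 57 selected genes (24.6%), 2.86% of the 1855 other snRNA genes and 2.24% of 64476 windows over all annotated genes. The 14 were 7 of 8 U5 genes, 4 of 10 U6 genes, RNU4-2, RNU4ATAC and RNU2-63P, and none of the 28 U1 genes. Only the exact octamer was searched, so variant forms of the element would have been missed. The share over all genes of each class was not determined, so the shares above are not matched for class. The window of RNU4-2 is shown because it holds the octamer, in capitals and on the reverse strand, at 229 bases before the start, whereas that of its neighbor RNU4-1 does not hold it.
RNU4-2 promoter, chr12:120729657-120729956, minus strand: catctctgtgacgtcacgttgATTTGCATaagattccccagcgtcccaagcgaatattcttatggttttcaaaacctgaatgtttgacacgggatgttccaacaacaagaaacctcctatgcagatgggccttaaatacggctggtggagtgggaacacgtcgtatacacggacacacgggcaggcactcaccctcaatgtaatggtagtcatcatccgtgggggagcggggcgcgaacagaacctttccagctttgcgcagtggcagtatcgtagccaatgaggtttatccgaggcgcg

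Of the 57 genes, 29 lay inside another annotated gene and 28 did not, and 18 of the 28 were lower by more than 3-fold, against 40 of all 57. The use of strand in counting is not stated, so reads of a host gene and of the snRNA within it may not have been separated. The differences of host genes did not run with those of their snRNAs in several cases. RNU2-2P lies in an exon of WDR74 on the same strand, and WDR74 had 1956 parental and 2168 CARM1 KO reads. RNU4ATAC lies in an intron of CLASP1 on the opposite strand, and CLASP1 had 2728 and 4349 reads. RNU2-59P lies in an intron of BTRC on the opposite strand, and BTRC had 2548 and 1714 reads. RNU1-19P, with 13 and 4 reads, lies in an intron of BMPR1A, which had 4897 and 1559 reads and was 3.22-fold lower (3.04 to 3.41). Of 15 host genes with at least 10 reads, 3 were lower and 3 were higher by more than 3-fold, against 11.7% and 12.8% of all genes. The part of host gene reads in the counts of the snRNAs was not tested.

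Some short RNAs of other types were also lower in CARM1 KO cells. Their values are given by length class, as a description with no test of variation with length. Other short RNA genes (small nucleolar RNAs, Y RNAs, signal recognition particle RNAs and similar) with at least 10 reads numbered 31 under 120 nt, of which 13 were lower by more than 3-fold, with a median log2 ratio of -1.50. From 120 to under 150 nt 28 of 58 were lower, with a median of -1.52, and from 150 to under 200 nt 5 of 6 were lower, with a median of -2.70. Among those of 200 to 350 nt, 18 of 82 genes were lower, 2 genes were higher, and the median was -0.48. For the selected snRNA genes the medians were -2.69 under 120 nt (9 of 16 lower), -2.93 from 120 to under 150 nt (6 of 6) and -2.30 from 150 to under 200 nt (25 of 35). Genes with few reads bear on these values, as many of them passed the minimum of 10 reads through the parental library. With a minimum of 100 reads, chosen after seeing the data, the snRNA medians were -1.56 under 120 nt (1 of 8 lower, the other 7 being the copies of RNU6-1), -2.66 from 120 to under 150 nt (3 of 3) and -2.35 from 150 to under 200 nt (10 of 18). For the other short RNAs with 100 reads they were -1.15 (1 of 12), -1.51 (11 of 25) and -2.27 (3 of 4) in the same classes, and -0.11 from 200 to 350 nt (2 of 17). RNY1, a Y RNA, had 159 and 12 reads and was 13.6-fold lower (7.55 to 26.8), and RNY3 had 132 and 50 reads. The longer polymerase III products had unlike ratios. RN7SK, the 7SK RNA that restrains the elongation factor P-TEFb, had 819453 parental and 964554 CARM1 KO reads and was 1.15-fold higher. RN7SL2, an RNA of the signal recognition particle, had 1010613 and 1235206 reads and was 1.19-fold higher. RN7SL3, an RNA of the same kind and length, had 35119 and 18273 reads, a ratio of 0.508. RSEM divides reads among genes of similar sequence, and the division of reads between RN7SL2 and RN7SL3 was not tested. The ratio of either gene alone may depend on it, and RN7SL1 was not found by name among the counted genes. BCYRN1, of 200 nt, had 1962 and 1279 reads, a ratio of 0.637. RN7SL3 and BCYRN1 were named after their values were seen. Set apart from the polymerase III products, TERC, the telomerase RNA, had 1029 and 643 reads. RNY4 and RNY5 had at most 6 reads in either library and the vault RNAs VTRNA1-1, VTRNA1-2 and VTRNA1-3 had 0. The RNA had been extracted with Trizol and cleaned on RNeasy columns, and the part of the recovery of short RNA in these differences was not tested.

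**Figure D4:**
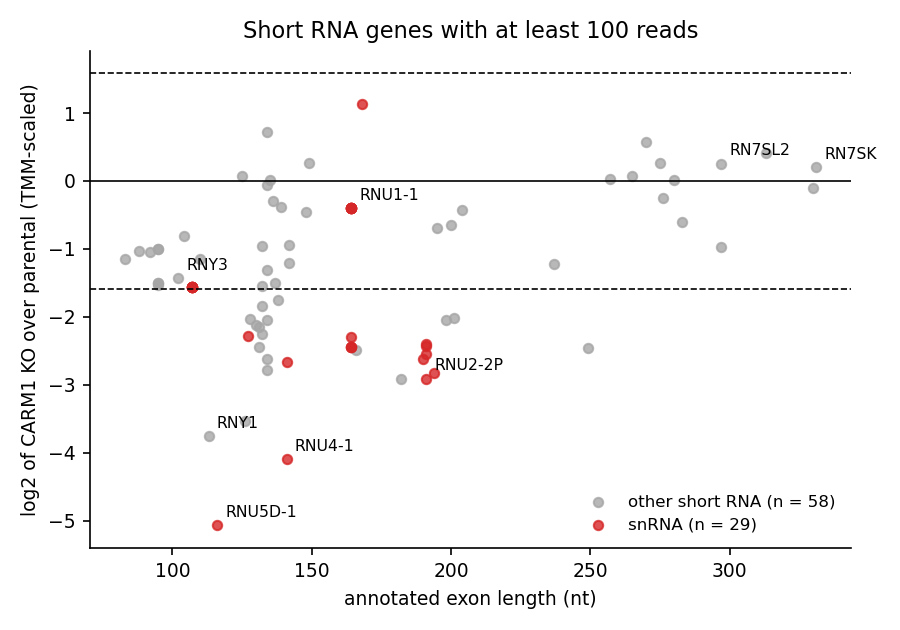
Log2 ratio of CARM1 KO to parental reads after TMM scaling (y axis) against annotated exon length in nt (x axis) for 29 snRNA genes (red) and 58 other short RNA genes (gray) whose summed reads reached 100. Dashed lines mark 3-fold. Most points shorter than 200 nt lie under 0, and RN7SK and RN7SL2, which are 331 and 297 nt long, lie just above it.

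The protein genes that make, process and bind snRNAs did not show differences of this size. Across 9 lists with 110 genes, all with at least 10 reads, 0 genes were lower and 2 were higher by more than 3-fold, against 11.7% and 12.8% of all genes. The lowest sum of reads among the 110 genes was 149, for GEMIN8, whereas the shares over all genes used a minimum of 10 reads. These shares were therefore not matched for read level. The median ratio of CARM1 KO to parental over the 110 genes was 0.869, and 72 of them were within 1.5-fold. The Sm and LSm rings, which bind the snRNAs, had a median log2 ratio of -0.34 over 15 genes, with 7132 and 10468 reads for SNRPB and 6109 and 8200 reads for LSM3. The 3 U1 proteins had a median of -0.82, with 4453 and 2579 reads for SNRNP70, the U1-70K protein, and 4170 and 7609 reads for SNRPC. The 12 U2 proteins had a median of -0.44, with 24376 and 18567 reads for SF3B1, which binds at the branch point, and 11630 and 11387 reads for SF3A3. The 17 proteins of the tri-snRNP had a median of 0.17, with 9007 and 11667 reads for the helicase gene SNRNP200 and 7988 and 10254 reads for EFTUD2. The 7 U11 and U12 proteins had a median of 0.11, with 1239 and 2884 reads for SNRNP48 and 1735 and 1737 reads for ZCRB1.

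Both genes past 3-fold belonged to the 14 genes of snRNA transcription, which had a median log2 ratio of -0.16. SNAPC1, a subunit of the complex that binds snRNA promoters, had 5366 parental and 18052 CARM1 KO reads and was 3.29-fold higher (3.19 to 3.39). ELL2, an elongation factor, had 1723 and 6227 reads and was 3.53-fold higher (3.35 to 3.73). BDP1, a subunit of the polymerase III factor TFIIIB, had 8794 and 7409 reads. POU2F1, named after its value was seen, had the lowest ratio of the list, 0.411. The 14 Integrator genes, which encode the complex that cuts the 3′ ends of polymerase II snRNAs, had a median of -0.20, with 4530 and 6717 reads for INTS6 and 3166 and 3552 reads for INTS8. The 21 genes of snRNP assembly and trafficking had a median of -0.22, with 18885 and 12419 reads for XPO1 and 10164 and 8925 reads for CLNS1A, a subunit of the methylosome. The 7 genes of U6 maturation and 7SK had a median of 0.14, with 15489 and 9362 reads for SSB, the La protein that binds new polymerase III transcripts, and 2987 and 3689 reads for LARP7.

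**Figure D5:**
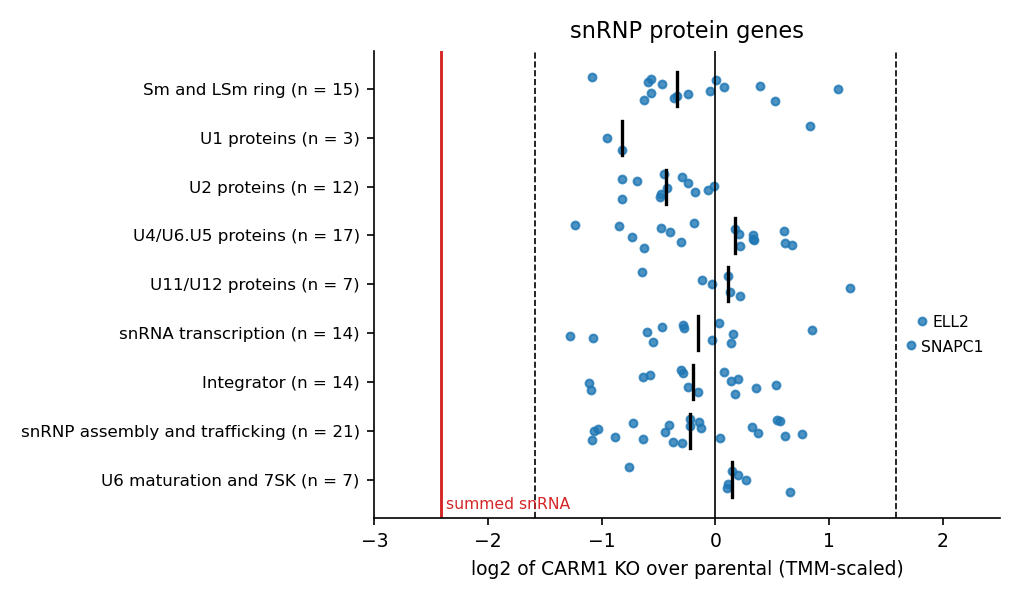
Log2 ratio of CARM1 KO to parental reads after TMM scaling (x axis) for 110 protein genes in 9 lists. Points are genes, black bars are list medians, dashed lines mark 3-fold and the red line marks the summed snRNA reads at -2.42. SNAPC1 and ELL2 are the only points outside the dashed lines.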

How the data were processed

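RNA-Seq libraries of parental control and CARM1 KO A1847 cells were compared, with 1 library per group. Libraries had been prepared from total RNA with the ScriptSeq complete Gold kit and sequenced as 75 bp paired ends. The authors used bowtie2 and hg19 for alignment, obtained counts for Ensembl genes from RSEM (1.2.3 in the submitters' processing notes, another version in the methods) and deposited them as whole-number counts without normalization. The Ensembl release and the strand setting are not given in the sources used here. Symbols, types and positions came from GENCODE 44 mapped to GRCh37, which held 55501 of 57736 identifiers, and the other 2235 were left without a type. Of 1914 snRNA genes in the annotation, 1912 were in the table.

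Counts were scaled with TMM in edgeR 4.0.16 (R 4.3.3), fitted on the whole table. With 1 library per group no quasi-likelihood test was possible, so ratios are given with exact (Clopper-Pearson) 95% intervals from scipy 1.17.1, which cover counting error only. Levels were called past 3-fold, with 0 reads set to a floor of 3 reads, among genes with at least 10 reads. Steps were tested on simulated data. Sequences were read from GRCh37 and aligned with biopython. Named were snRNA genes with at least 1000 reads, the 3 with most reads of each class, those past 3-fold with at least 100 reads, the active spliceosomal genes, other short RNAs and, of each protein list, genes past 3-fold and the 2 with most reads. Genes and lists were chosen with earlier results of these data known. Alternatives were 5 other scalings, including DESeq2 1.42.0 size factors, other minimums and thresholds, edgeR's exact test with an assumed coefficient of variation of 0.12 or 0.4, and copies counted once.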

Additional observations from a re-analysis of the deposited data

How the results depend on the processing

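No paired analysis was possible because each group had 1 library, and for the same reason no library could be left out. The count of 40 lower snRNA genes became 23 with a minimum of 50 reads, where fewer genes were counted, and 20 when edgeR's exact test with an assumed coefficient of variation of 0.4 was also required, and it stayed between 29 and 50 under the other alternatives. The count of 0 higher genes became 1 (RNVU1-13) at a threshold of 2-fold and stayed at 0 otherwise. Ratios of CARM1 KO to parental kept their direction under every scaling, and of 170 comparisons for single named genes 12 moved across the 3-fold threshold, all of them copies of RNU6-1. The ratio of all snRNA reads was 0.187 with TMM, 0.183 with library size, 0.192 with DESeq2 size factors, 0.190 with upper-quartile scaling, 0.178 with the library size without snRNA genes, 0.179 with that of protein-coding genes and 0.175 without pseudogenes by symbol, with RNU2-2P kept. In the same order the ratio of U1 was 0.372, 0.363, 0.381, 0.377, 0.354, 0.355 and 0.333, the last of which is past 3-fold. That last setting dropped RNU1-27P and RNU1-28P, which share reads evenly with RNU1-1, so its value depends on how reads were divided. The ratio of U2 was 0.133, 0.130, 0.136, 0.135, 0.126 and 0.127 under the scalings. Without pseudogenes by symbol, U5 was 0.0269 in place of 0.0461 and U6 0.262 in place of 0.310. For U6 this setting likewise dropped RNU6-3P, RNU6-4P, RNU6-5P and RNU6-6P, which are identical to RNU6-1. As a percent of the reads outside snRNA genes, the share was 3.23% in parental and 0.575% in CARM1 KO cells. Depth limits the U5, U6atac and most pseudogene values, and the cause of the shifts was not tested.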
